A study of Homo sapiens with 5 samples.

Results

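The narrow gained JMJD3 sites are the binding sites of JMJD3 under 200 bp that were listed in irradiated BJ fibroblasts, shared no base with any JMJD3 site listed before irradiation or with any p53 site listed after it, and were not part of a chain of 10 or more JMJD3 sites joined by gaps of at most 5 kb. There were 17358 such sites, which is 49.4% of the 35133 JMJD3 sites of irradiated cells. They were chosen from the measured lists themselves, so their width and their absence from the other lists are a description and not a result.

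The sites come from ChIP-seq, in which DNA fragments bound by a protein are collected with an antibody and sequenced. BJ cells are human diploid foreskin fibroblasts, here a version immortalized with hTERT, the catalytic part of telomerase, and both groups carry it. One group received 10 Gy of ionizing radiation (IR) and was harvested 6 h later by the sample labels, and the other was left untreated. The text of the paper gives a somewhat shorter time, and the difference could not be settled. JMJD3 was collected with a rabbit antibody raised against a part of the JMJD3 protein, and p53 with the DO-1 antibody. There was 1 library for each combination of antibody and exposure, so no comparison between conditions could be tested, and the IgG library listed among the samples was of untreated cells only. The lists hold positions on hg18 and no heights, scores or read totals, so the depth is unknown, a site is either listed or not, and the labelled cell type could not be checked against marker genes. In a pool of cells, JMJD3 bound in more cells and more JMJD3 bound per cell cannot be told apart.

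JMJD3, also called KDM6B, is a demethylase that removes methyl groups from lysine 27 of histone H3, a mark laid down by Polycomb complexes at silent genes. Loss of this mark goes with gene activation, and JMJD3 is known for its induction by stress and inflammatory signals. p53 is a transcription factor that is kept at a low level by MDM2 in unstressed cells and accumulates after DNA damage, with CDKN1A among its best known targets. A new JMJD3 site after IR can thus lie at a p53 element, beside a stretch that already held JMJD3, or apart from both, and the distances below describe the last 2 of these cases.

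Of the 35133 JMJD3 sites of irradiated cells, 19665 were under 200 bp. An overlapping JMJD3 site of untreated cells removed 675 of them, an overlapping p53 site of irradiated cells a further 297, and membership of a long chain a further 1335. Most JMJD3 sites of irradiated cells lacked a counterpart before IR (88.1% of all). Among those under 200 bp the share was 96.6%, and of the 15468 sites of 200 bp or more 11965 lacked one. The same rule at widths of 200 bp or more gave 10382 wide gained sites, which serve here for comparison. The narrow sites covered 2.65 Mb in all and the wide ones 2.96 Mb.

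The narrow gained sites were between 125 and 199 bp wide, with a median of 149 bp and quartiles of 131 and 171 bp. A width of exactly 125 bp was by far the most common. It was shared by 2779 sites (16.0%), whereas every other width under 200 bp held between 112 and 282 sites. The number of sites declined evenly across the limit that defines the class, with 116 sites of 199 bp and 116 of 200 bp. The smallest width in each of the other 3 lists was 200 bp, also with an accumulation there, of 535 JMJD3 sites (11.3%) in untreated cells and 347 p53 sites (10.7%) in irradiated cells. A site under 200 bp is therefore found in 1 of the 4 lists only, and the effect of IR on the narrow sites cannot be told apart from a lower minimum width in that list.

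**Figure D1:**
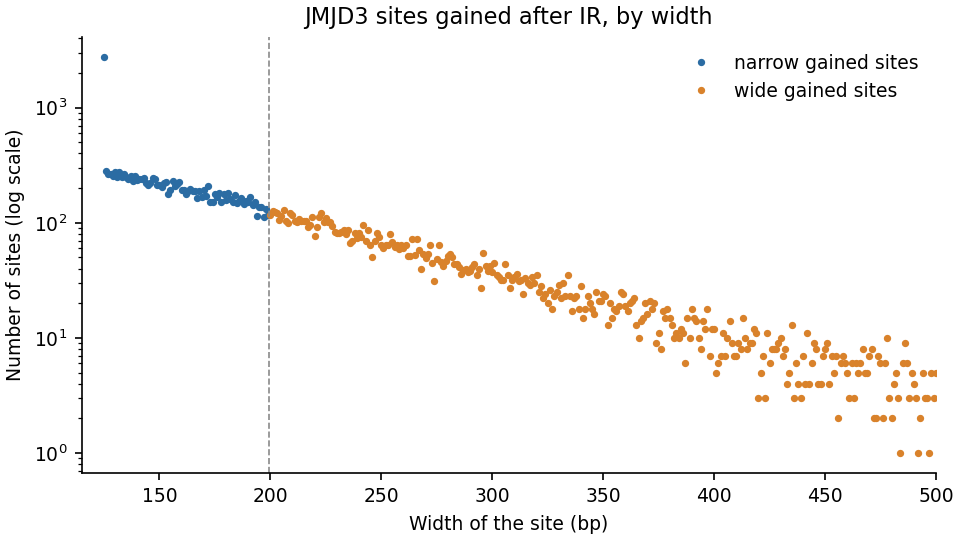
Number of gained JMJD3 sites (log scale) at each width in bp, up to 500 bp, with narrow sites in blue, wide sites in orange and the limit between them dashed. The 2779 sites at 125 bp stand apart from an otherwise even decline that shows no step at 200 bp.

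The first comparison asks whether the narrow gained sites lay close to chromatin that held JMJD3 before IR. Of the 17358 narrow sites, 870 (5.01%, exact 95% interval 4.69 to 5.35%) lay within 1 kb of a JMJD3 site of untreated cells, measured between the nearest edges, and 2547 (14.7%, 14.2 to 15.2%) within 10 kb. The median distance was 139 kb, with quartiles of 31.3 and 451 kb, and the largest was 9.51 Mb. A minority was thus adjacent to earlier JMJD3 binding and most sites were far from it. For comparison, 30.7% of all JMJD3 sites of irradiated cells lay within 10 kb, but that number includes the sites that overlap one, which the narrow class leaves out.

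These shares were set beside random placement, computed exactly as the share of all positions of the same width on the same chromosome that lie within the limit, leaving out positions that overlap an untreated JMJD3 or irradiated p53 site. Placement over the whole chromosome gave 0.283% within 1 kb and 2.34% within 10 kb. The observed shares were 17.7 times (16.6 to 18.9) and 6.27 times (6.05 to 6.50) these values. Placement 10 to 100 kb from each site's own position, which keeps the large-scale surroundings, gave 0.807% and 6.30%, and ratios of 6.21 (5.82 to 6.63) and 2.33 (2.25 to 2.41). The ratio over the chromosome within 10 kb depended on the chain rule. With chains of 5 or more left out, the share was 9.45% and the ratio 4.11, and with chains kept they were 19.6% and 8.35. Placed positions were not kept out of chains. The intervals cover counting error only, and neighbouring sites are not independent.

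The ratio to nearby placement was highest in the bands closest to an untreated JMJD3 site. In the band of 0 to 0.5 kb from an untreated JMJD3 site the narrow sites were 6.68 times as frequent as under nearby placement, at 1 to 2 kb 3.43 times, at 2 to 5 kb 1.87 times and at 5 to 10 kb 1.30 times. Moving the sites by 10 to 100 kb puts those that lie close to a listed site into the bands beyond, so this ratio is not read there. Placement over the chromosome gave ratios of 2.74 at 10 to 20 kb, 2.07 at 20 to 50 kb and 1.66 at 50 to 100 kb, and with placement 100 kb to 1 Mb away the share within 50 kb was still 2.16 times as high. Counted up to 100 kb, 43.7% of the narrow sites had an untreated JMJD3 site, against 25.3% under placement 100 kb to 1 Mb away and 17.2% under placement over the chromosome.

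**Figure D2:**
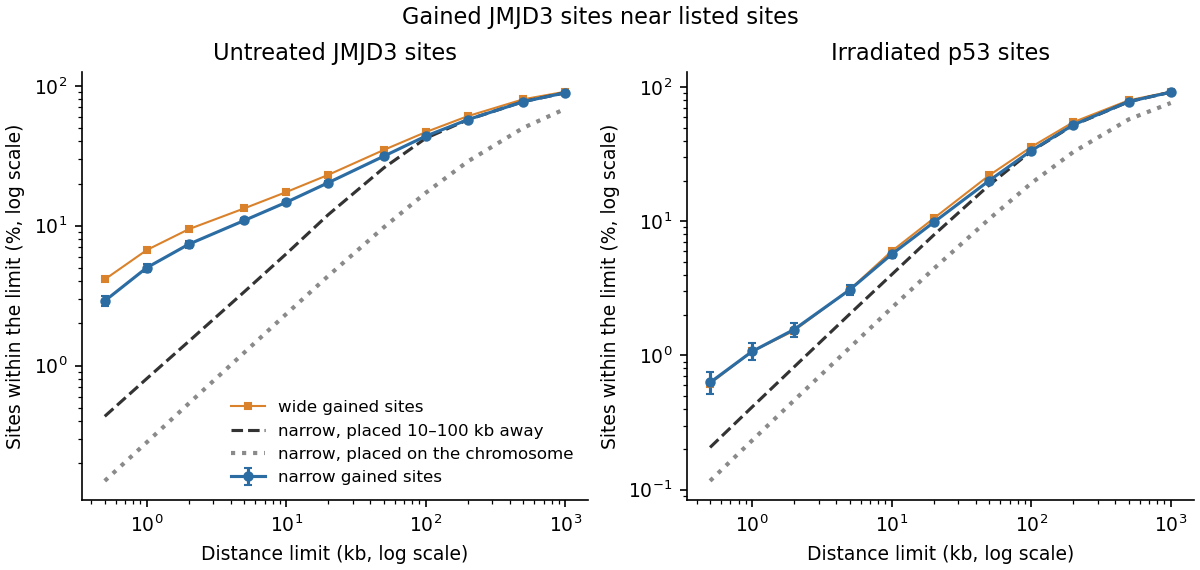
Share of sites (percent, log scale) with an untreated JMJD3 site (left) or an irradiated p53 site (right) within each distance limit (kb, log scale), for narrow gained sites in blue with exact 95% intervals, wide gained sites in orange, and narrow sites placed 10 to 100 kb away (dashed) or over the chromosome (dotted). The observed shares lie above both placements at the shorter limits, and the dashed curve nears them toward 100 kb, the farthest that these sites were moved.

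An untreated JMJD3 site can be listed again after IR or not, and both kinds had narrow gained sites beside them. A narrow gained site lay within 1 kb of 696 of the 4095 untreated sites at which JMJD3 was listed again after IR (17.0%) and of 132 of the 622 at which it was not (21.2%, exact 95% interval 18.1 to 24.6%). The rule lowers the first share, because 1043 of the 4095 lay in the long chains, from which no narrow site could be taken. With untreated sites near chains left out, the shares were 22.8% (689 of 3028) and 23.9% (130 of 543), a difference of 1.19 percentage points (95% interval -2.54 to 5.22). A difference between the sites listed again and those not listed again was thus not detectable with this number of sites. Wider untreated sites had a narrow site beside them more often once sites near chains were left out. Within 1 kb it was 419 of 1598 untreated sites above the median width of 269 bp (26.2%, exact 95% interval 24.1 to 28.5%) and 400 of 1973 others (20.3%, 18.5 to 22.1%), a difference of 5.95 points (3.16 to 8.75). With sites near chains kept, the difference was 0.784 points (-1.39 to 2.96).

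The second comparison concerns p53. Of the narrow gained sites 186 (1.07%, exact 95% interval 0.924 to 1.24%) lay within 1 kb of a p53 site of irradiated cells and 984 (5.67%, 5.33 to 6.02%) within 10 kb. The median distance was 185 kb, with quartiles of 66.3 and 447 kb. Over all JMJD3 sites of irradiated cells, overlaps included, 7.83% lay within 10 kb. Placement over the chromosome gave 0.232% within 1 kb and 2.26% within 10 kb, so that the observed shares were 4.62 times (3.98 to 5.33) and 2.51 times (2.36 to 2.67) as high. Against placement 10 to 100 kb away the ratios were 2.60 (2.24 to 3.0) and 1.42 (1.33 to 1.5). Narrow gained sites were thus closer to p53 sites than placed sites were, by smaller factors than for untreated JMJD3 sites.

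By distance band the ratio to nearby placement was 3.04 within 0.5 kb of a p53 site, 2.16 at 0.5 to 1 kb, 1.19 at 1 to 2 kb, 1.26 at 2 to 5 kb and 1.31 at 5 to 10 kb. Only 109 and 77 sites fall in the 2 nearest bands, so they hold 186 of the 17358 sites.

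Nearness to p53 was also seen away from earlier JMJD3 binding. Among the 9766 narrow sites with no untreated JMJD3 site within 100 kb, 85 (0.870%, exact 95% interval 0.696 to 1.08%) lay within 1 kb of a p53 site, 2.44 times (1.95 to 3.02) the share under nearby placement. Among the 7592 narrow sites with such a JMJD3 site, 101 (1.33%, 1.08 to 1.61%) did, 2.75 times (2.24 to 3.34) nearby placement. The shares themselves differed by 0.460 percentage points (0.149 to 0.788). Within 10 kb they were 4.54% and 7.13%, a difference of 2.59 points (1.89 to 3.31).

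Seen from the p53 sites, 171 of 3232 (5.29%) had a narrow gained site within 1 kb and 734 (22.7%) within 10 kb. The p53 sites that held JMJD3 themselves after IR had one more often. Within 1 kb it was 73 of 686 (10.6%, exact 95% interval 8.43 to 13.2%) against 98 of the 2546 p53 sites without JMJD3 (3.85%, 3.14 to 4.67%), a difference of 6.79 points (4.55 to 9.41). Within 10 kb it was 35.1% against 19.4%, a difference of 15.8 points (11.9 to 19.7). The difference within 1 kb was 4.01 points (1.62 to 7.19) among p53 sites with no untreated JMJD3 site within 100 kb, where 26 of 366 (7.10%) and 57 of 1840 (3.10%) had a narrow site. Both the overlap and the narrow sites come from the same JMJD3 library, so the values are not independent of each other.

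Prior p53 binding made no detectable difference to the flanks. Of the 343 p53 sites that overlapped a p53 site of untreated cells, 18 (5.25%) had a narrow gained site within 1 kb, and of the 2889 listed only after IR 153 (5.30%), a difference of -0.0481 points (-2.14 to 2.94). Within 10 kb the shares were 26.5% and 22.3% (difference 4.27 points, -0.386 to 9.41). The rule did not name the 361 p53 sites of untreated cells, but 343 irradiated p53 sites, which it did use, overlapped them. They are thus not a separate check. The untreated p53 sites had 18 narrow sites within 1 kb (0.104% of 17358). This was 4.71 times (2.79 to 7.44) placement over the chromosome and 2.41 times (1.43 to 3.8) nearby placement, and 1 narrow site touched or overlapped a p53 site of untreated cells.

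Counted together, 225 narrow gained sites (1.30%) had both an untreated JMJD3 site and an irradiated p53 site within 10 kb, 2322 (13.4%) had the JMJD3 site only and 759 (4.37%) the p53 site only. The remaining 14052 (81.0%, exact 95% interval 80.4 to 81.5%) had neither. At a limit of 100 kb 6881 narrow sites (39.6%, 38.9 to 40.4%) still had neither, compared with 3747 of the wide gained sites (36.1%, 35.2 to 37.0%). The 3 narrow sites farthest from both lists were a site on chromosome Y (20307422 to 20307617, hg18), 196 bp wide and 5.36 Mb from the nearest p53 site, and a pair of sites on chromosome 6. The pair covered 91353665 to 91353859 and 91135602 to 91135731, and lay 4.91 and 4.69 Mb from the nearest untreated JMJD3 site. Chromosome Y held only 2 untreated JMJD3 and 4 irradiated p53 sites over a span of 18.3 Mb, so large distances are likely there.

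The narrow and the wide gained sites were then compared with each other. Within 10 kb of an untreated JMJD3 site lay 14.7% of the narrow and 17.4% of the wide sites, a difference of -2.75 percentage points (95% interval -3.66 to -1.86). It was -5.12 points with chains kept, and -1.34 points both with chains of 5 or more left out and with sites within 1 kb of a listed site left out. For p53 sites the shares were 5.67% and 5.98%, and the difference of -0.313 points (-0.892 to 0.252) was within counting error. Within 1 kb of p53 the shares were 1.07% for both (difference 0.00239 points, -0.257 to 0.247). Within 50 kb of p53 the narrow sites were less frequent, 20.1% against 22% (-1.85 points, -2.85 to -0.857).

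The difference near untreated JMJD3 sites did not begin at 200 bp. Wide gained sites of 200 to 249 bp had an untreated JMJD3 site within 10 kb in 14.6% of cases, which differed from the narrow sites by -0.0346 points (-1.15 to 1.12). The share was 16.8% at 250 to 299 bp, 18.8% at 300 to 399 bp and 29.7% (26.9 to 32.7%) at 400 bp and above, the last being 15.0 points (12.2 to 18.0) over the narrow sites. Within the narrow class the share was 13.6% (12.4 to 15.0%) at 125 bp, 15.0% at 126 to 149 bp, 14.3% at 150 to 174 bp and 15.4% (14.2 to 16.5%) in the narrow sites wider than these. The many sites at 125 bp differed from the other narrow sites by -1.23 points (-2.59 to 0.210) near JMJD3 and by -0.0659 points (-0.951 to 0.922) near p53. Near p53 the share stayed between 5.58 and 5.81% in the narrow width groups and was 9.12% (7.39 to 11.1%) only at 400 bp and above. On either side of the limit, 14.6% of the 635 sites of 195 to 199 bp and 16.4% of the 593 sites of 200 to 204 bp lay within 10 kb of an untreated JMJD3 site.

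**Figure D3:**
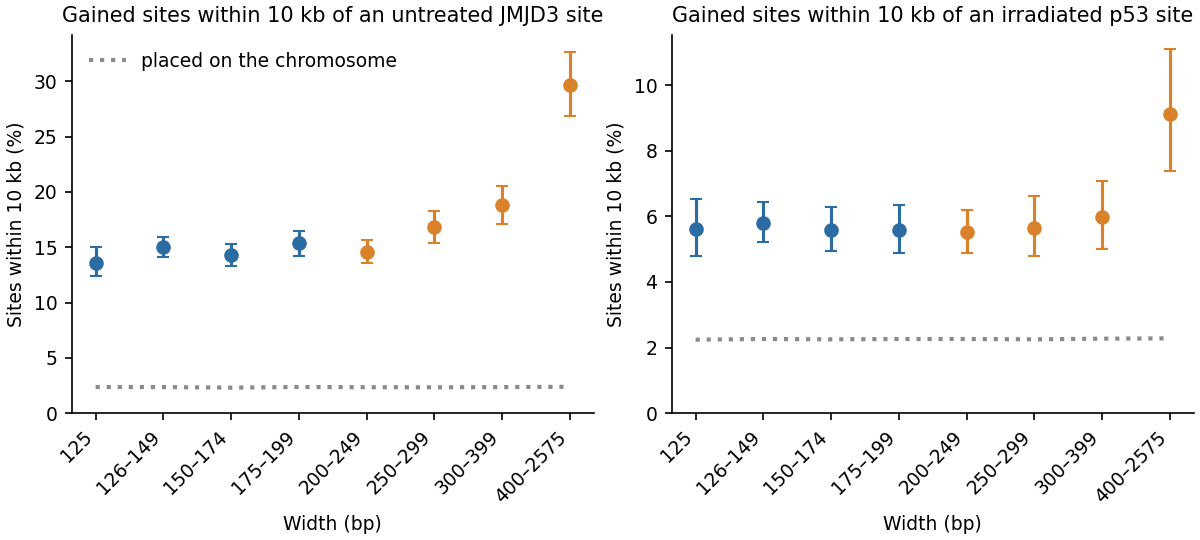
Share of gained JMJD3 sites (percent, with exact 95% intervals) within 10 kb of an untreated JMJD3 site (left) or an irradiated p53 site (right) by width in bp, narrow sites in blue and wide sites in orange, with placement over the chromosome dotted. The shares are level up to 249 bp and highest at 400 bp and above, 29.7% for JMJD3 and 9.12% for p53.

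Within the list of irradiated cells the narrow gained sites were mostly single. No other JMJD3 site lay within 5 kb of 9769 of them (56.3%), 3479 were in a chain of 2, and 4110 (23.7%) in a chain of 3 to 9, the largest chain the rule allows. The nearest other JMJD3 site was within 1 kb for 4427 (25.5%), against 30.8% of the wide gained sites. Of the 7589 narrow sites with a neighbour within 5 kb, the nearest neighbour was another narrow gained site for 4008 (52.8%), a wide gained site for 2643 (34.8%), a site that overlapped an untreated JMJD3 site for 831 (11.0%) and a site that overlapped a p53 site for 107 (1.41%). Over the whole list of irradiated cells these kinds made up 49.4, 29.6, 8.89 and 1.72%, and sites of long chains 10.4%. For wide gained sites the nearest neighbours were of much the same kinds (49.5, 36.4, 12.8 and 1.26%). The values thus show no preference of narrow sites for one another. Since the rule used chains, they are a description.

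The p53 sites with the most narrow gained sites within 10 kb show different surroundings. The p53 site on chromosome 3 from 42677193 to 42677410 (hg18), 218 bp wide, had 7 narrow sites, 3 before and 4 after it, between 4.40 and 7.83 kb away and 125 to 191 bp wide. No wide gained site and no untreated JMJD3 site lay within 10 kb of it, and it was not listed for JMJD3 itself. The p53 site on chromosome 15 from 37546000 to 37546312 also had 7, all on one side and from 0.40 to 7.92 kb away, and here JMJD3 was listed at the p53 site itself both before and after IR. The p53 site on chromosome 1 from 67924731 to 67925285, 1 of 2 with 6 narrow sites, was listed for p53 before IR as well and had 3 untreated JMJD3 sites within 10 kb.

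Among untreated JMJD3 sites the highest number was 9 narrow gained sites, within 10 kb of the site on chromosome 12 from 104102919 to 104103118, which was 200 bp wide and had no overlapping JMJD3 site after IR. Its narrow sites lay 0.660 to 9.65 kb away, 7 of them on one side. On chromosome 8 the untreated JMJD3 sites from 70652260 to 70652484 and from 70657629 to 70657940 shared the same 8 narrow sites, which extended from 70648717 to 70662532. The first of this pair was not listed for JMJD3 after IR and the second was. The pair is 2 of 5 untreated sites with 8 narrow sites, and no p53 site lay within 10 kb of any of the 3 untreated sites named.

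**Figure D4:**
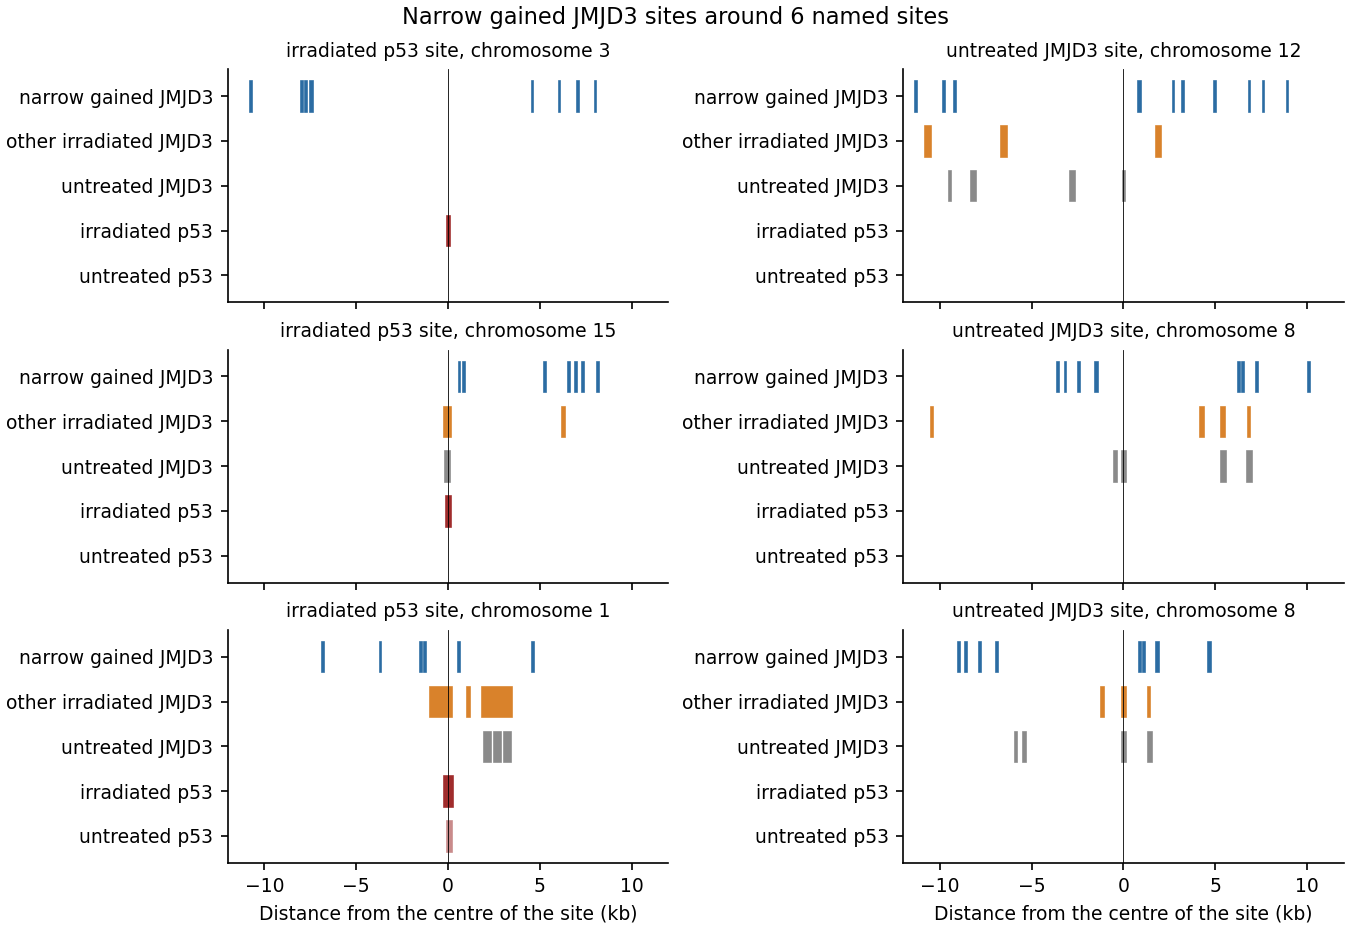
Listed sites within 12 kb of the centre of 3 irradiated p53 sites (left) and 3 untreated JMJD3 sites (right), by distance from that centre in kb, in rows for narrow gained JMJD3 sites, other JMJD3 sites of irradiated cells, JMJD3 sites of untreated cells and p53 sites of irradiated and untreated cells. The p53 site on chromosome 3 has narrow gained sites on both sides and no other kind of JMJD3 site in the panel, and those on chromosome 15 all lie on one side of the p53 site.

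The distal element on chromosome 4 that the naming rule includes held 2 JMJD3 sites after IR, neither of them a narrow gained site. No narrow gained site lay within 100 kb of it. The nearest, from 153204504 to 153204694, was 191 bp wide, 194 kb from the element and 950 kb from any untreated JMJD3 site.

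Across the chromosomes the narrow gained sites followed the other lists. There were 5.91 narrow sites per Mb over the span of the lists, with the highest density on chromosome 19 (12.4 per Mb), then 17 (10.3) and 22 (9.30), chromosomes known to be rich in genes. Among the autosomes chromosome 13, known to be poor in genes, had the lowest density with 3.99 per Mb, and chromosome X had 2.01 and Y 0.927. The other lists were low on X and Y too, with 0.325 and 0.218 p53 sites and 0.683 and 0.109 untreated JMJD3 sites per Mb. Densities were not corrected for copy number or for sequence without unique alignments. The range over the autosomes was 3.10 times for narrow sites and 3.35 times for wide gained sites, but 7.82 times for JMJD3 sites of untreated cells and 2.09 times for p53 sites. Narrow sites made up 62.6% of all gained sites, between 59.6% (chromosome 15) and 65.5% (chromosome 4) on the autosomes.

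**Figure D5:**
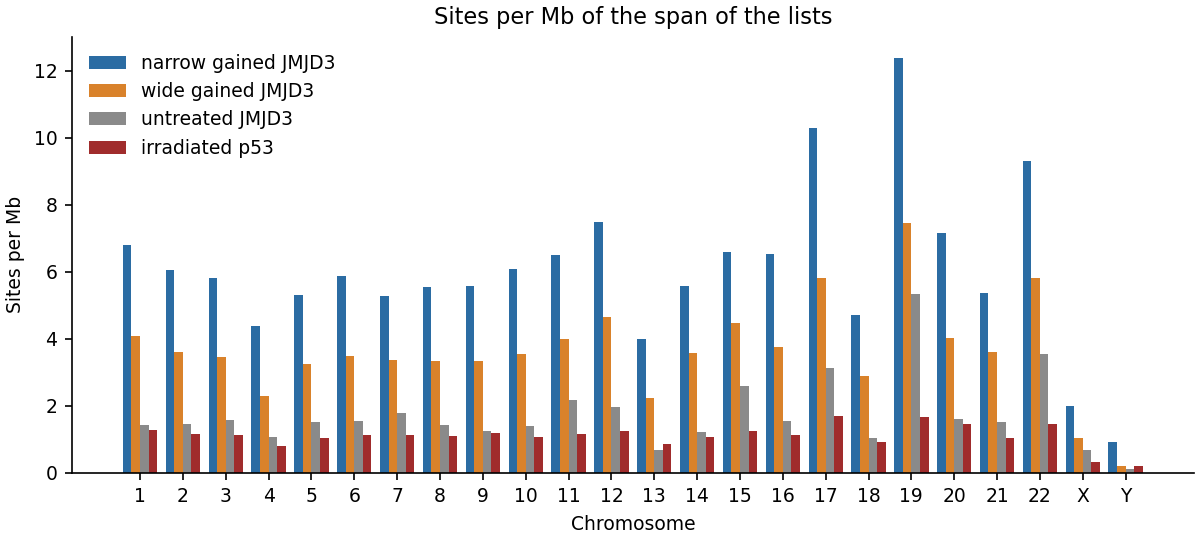
Sites per Mb of the span of the lists on each chromosome, for narrow and wide gained JMJD3 sites, untreated JMJD3 sites and irradiated p53 sites. Chromosomes 17, 19 and 22 are highest for both gained classes and for untreated JMJD3 sites, and narrow sites range from 3.99 to 12.4 per Mb over the autosomes.

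Over the 22 autosomes the density of narrow gained sites went with that of wide gained sites (Pearson's r = 0.983, Spearman's rho = 0.936), of p53 sites after IR (0.931 and 0.920) and of untreated JMJD3 sites (0.931 and 0.746). Over 2959 windows of 1 Mb the values were 0.811 and 0.832 for wide gained sites, 0.577 and 0.657 for untreated JMJD3 sites, and 0.478 and 0.554 for p53 sites. Both gained classes come from the same library. Properties that the lists share within a chromosome or window, such as base composition, were not analysed, so these values are descriptions. Of the windows 2289 (77.4%) held a narrow site, with a median of 4 per window, and the highest numbers were 41 on chromosome 1 (154000001 to 155000000), 37 on chromosome 19 (63000001 to 64000000) and 35 on chromosome 5 (14000001 to 15000000). The window on chromosome 19 also held 36 untreated JMJD3 sites and no p53 site, that on chromosome 1 held 10 and 2, and that on chromosome 5 held 6 and 1. The 971 windows without any untreated JMJD3 or irradiated p53 site had a mean of 1.45 narrow sites and held 8.09% of them, against a mean of 8.03 in the 1988 other windows. Of the 971, 405 held a narrow site. Windows in which no site could be listed, such as gaps in the assembly, were not left out, which lowers the first mean.

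The share near listed sites was also set beside placement on each chromosome with at least 100 narrow sites, which leaves out Y alone. Within 10 kb of untreated JMJD3 sites the ratio to placement over the chromosome was above 1 on 23 of 23 chromosomes, with the interval of the share above placement on all 23, and lay between 4.57 (chromosome 17) and 8.75 (chromosome 4) on the autosomes, and at 18.7 on X. The share itself was highest on chromosome 19, where 247 of 782 narrow sites (31.6%, exact 95% interval 28.3 to 35.0%) had an untreated JMJD3 site within 10 kb, and lowest on chromosome 13 (8.97%, 6.29 to 12.3%). Near p53 the ratio was also above 1 on 23 of 23 chromosomes, and the interval of the share lay above placement on 22. The exception was chromosome 18, where the ratio was 1.61 and 10 of 358 narrow sites (2.79%, 1.35 to 5.08%) had a p53 site within 10 kb, against 1.73% under placement. The ratio reached 3.19 on chromosome 5 among the autosomes and 3.62 on X, where 7 sites counted. Placement 10 to 100 kb away was not computed by chromosome. Over all chromosomes it lowered the ratio within 10 kb from 2.51 to 1.42 for p53 and from 6.27 to 2.33 for untreated JMJD3. The numbers of chromosomes above 1 therefore hold for placement over the chromosome only.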

How the data were processed

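The deposited lists have columns without a header, the chromosome, start and end of each peak (hg18), a position in bases and no score. The authors aligned tags with Bowtie 0.12.7, keeping unique alignments, and detected peaks in the JMJD3 and p53 libraries with MACS2 and an IgG control. The threshold is not given in the sources used here. One library per group was listed and nothing was pooled.

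Overlap meant 1 bp shared. Distances were gaps between nearest edges. Shares carry exact (Clopper-Pearson) 95% binomial intervals and differences Newcombe 95% intervals, which cover counting error only. No test between conditions was possible. Random placement was computed without drawing, as the share of allowed positions, over the span of the 4 lists on the chromosome, gaps in the assembly included, or 10 to 100 kb away. The steps were tested on simulated data. Python 3.11.15, numpy 2.4.6, scipy 1.17.1 and matplotlib 3.10.9 were used. Positions count from 1.

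The members, limits and classes were chosen with earlier results of these data known. Named regions follow a rule: the 3 windows of 1 Mb, p53 sites and untreated JMJD3 sites with the most narrow sites, the 3 narrow sites farthest from both lists, the chromosome 4 element given a position in the paper's supplement, and the chromosomes of highest and lowest density. Genes and sequence were not analysed here, because no hg18 annotation or genome was used.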

Additional observations from a re-analysis of the deposited data

How the results depend on the processing

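Of 71 comparisons of a reported value with an alternative, 43 stayed within the counting interval (for numbers of sites, within 1.5 times) and 28 moved beyond it, and 0 changed direction. A change of direction could be recorded only for the ratios and for the narrow-minus-wide difference near untreated JMJD3. The number of narrow gained sites lay between 13544 and 18693 under all alternatives run. Leaving out the sites of 125 bp, an alternative chosen after seeing the data, moved nothing beyond these limits, and neither did a narrower width limit, autosomes alone or distances between centres.

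The share within 10 kb of an untreated JMJD3 site and its ratio to placement were 19.6% and 8.35 with chains kept, 9.45% and 4.11 with chains of 5 or more left out, 10.2% and 4.99 when gained meant no listed site within 1 kb, and 13.6% and 5.85 with sites merged within 1 kb. With a limit of 5 kb they were 10.9% and 8.77, and with 50 kb 31.4% and 3.22. With placement 10 to 100 kb away the ratio was 2.33, and with 100 kb to 1 Mb 4.12. For p53 the share and ratio were 5.26% and 2.34 with chains of 5 or more left out, 4.61% and 2.28 with no listed site within 1 kb, 3.08% and 2.70 at 5 kb and 20.1% and 1.93 at 50 kb, and the ratio was 1.42 and 1.83 under the 2 other placements. The narrow-minus-wide difference near untreated JMJD3 was -5.12 points with chains kept, -1.34 with chains of 5 or more left out and -1.34 with no listed site within 1 kb. Near p53 it was -1.85 at 50 kb. A shorter or longer distance limit changes the share by construction, and so does taking out every site within 1 kb of a listed one. For the other settings the cause was not tested.

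No paired analysis was possible because the groups hold a single library each. The depth is unknown, which limits every statement that a site was gained.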
